A study of Danio rerio with 13 samples.

Results

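The Hedgehog pathway was represented by 8 genes, which were followed through the RNAseq data of sorted zebrafish arch neural crest cells (NCCs): the ligands *shha* and *shhb*, the receptor *ptch1*, the signal transducer *smo*, the cell surface inhibitor *hhip* and the transcription factors *gli1*, *gli2a* and *gli3*. They were taken by gene name from a table of 27911 genes, in which the 8 names stand for 9 entries, since 2 entries are named *ptch1*. Of these entries, 6 had a mean of at least 1 RPKM (reads scaled by transcript length and by the mapped reads of the library) over the 13 libraries and were counted below, among the 11690 genes of the table that passed this minimum. *shha*, *shhb* and the second *ptch1* entry did not pass it.

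In the Hedgehog pathway, secreted ligands bind Patched receptors and so release Smoothened from inhibition, and Smoothened acts in the primary cilium to turn Gli proteins into activators. *ptch1*, *hhip* and *gli1* are widely known as transcriptional targets of the pathway as well as its components, and Patched and Hhip dampen the signal by binding ligand. In the face, Hedgehog ligands come largely from the epithelia and midline tissues around the arches, and the crest-derived mesenchyme is a responding tissue in which several forkhead genes depend on the signal.

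Arch NCCs were sorted as cells positive for a pair of reporters. *sox10*:DsRed is a reporter of the crest lineage that is also on in the ear, and *fli1a*:EGFP is on in vessels and macrophages besides the crest of the arches. Of the 11 double-positive libraries, 5 came from perturbed embryos at 36 hours post-fertilization (hpf), namely *edn1*-/- mutants, *jag1b*-/- mutants, wild types treated with the Notch inhibitor dibenzazepine (DBZ) at 10 µM from 24 hpf, and heat-shocked *hsp70I*:Gal4 embryos with *UAS*:Edn1 (Edn1 overexpression) or with *UAS*:NICD (the Notch intracellular domain). Wild types were sequenced at 20, 28 and 36 hpf, and the other controls at 36 hpf were *jag1b*+/+ siblings and heat-shocked embryos with *hsp70I*:Gal4 alone or *UAS*:Edn1 alone. The 2 single-positive populations came from wild types at 36 hpf. Heat shock was from 20 to 24 hpf at 40 °C and acts in all tissues, embryos were pooled before sorting, *edn1* mutants were picked by the shape of their arches, and all embryos carried both reporter transgenes.

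With 1 library per condition there was no replicate to check a difference against, and no test was run. A fold change is a ratio of RPKM values, a gene is called at 1.5-fold or more, and the range of the 4 control libraries at 36 hpf (wild type, *jag1b*+/+ sibling, *hsp70I*:Gal4 and *UAS*:Edn1) is the only measure of spread. Where RPKM values could be turned back into whole reads, a 95% interval (exact, Clopper-Pearson) is given, which covers counting error only and compares libraries. Depth ranged from 0.687 to 1.23 times that of the wild-type 36 hpf library. Summed RPKM of 8 arch NCC markers was 331 to 854 in the double-positive libraries, against 235 in *fli1a*:EGFP cells and 146 in *sox10*:DsRed cells positive for that reporter alone. Markers of macrophages and neutrophils summed to 278 at 20 hpf and 181 at 28 hpf, but to 3.27 to 14.8 in the double-positive libraries at 36 hpf. In these bulk libraries, fewer cells of a type and less RNA per cell cannot be told apart.

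The ligand genes were close to absent from the arch NCC libraries. *shha* stood at 0.0335 RPKM in *edn1* mutants (3 reads), 0.0897 with Edn1 overexpression, 0.355 in *jag1b* mutants, 0.0661 with DBZ and 0.203 with NICD. In the control libraries at 36 hpf it stood at 0.0536 in wild types (7 reads), 0.150 in siblings, 0.417 in *hsp70I*:Gal4 and 0.202 in *UAS*:Edn1 embryos. The perturbed values overlapped the control values except in *edn1* mutants, whose 3 reads lay just below the lowest control. Against its own control, *shha* had a ratio of 0.215 with Edn1 overexpression (interval 0.103 to 0.410), 2.37 in *jag1b* mutants (1.36 to 4.27) and 0.486 with NICD (0.294 to 0.780). These were beyond counting error of reads, but so was the ratio of 0.484 (0.282 to 0.801) between the *UAS*:Edn1 and *hsp70I*:Gal4 controls. At 20 hpf no *shha* read was present, which allows up to 0.0229 RPKM, and at 28 hpf the level was 0.243 RPKM. *shhb* had 0 reads in 7 of the 11 double-positive libraries and at most 0.0488 RPKM in the others.

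Of the 2 single-positive populations, *sox10*:DsRed cells had the higher *shha*, and double-negative cells were not analysed here. Wild-type double-positive cells had 0.0536 RPKM, against 0.169 in single-positive *fli1a*:EGFP cells and 3.60 in single-positive *sox10*:DsRed cells, so double-positive cells were 67.2-fold lower than *sox10*:DsRed single-positive cells (interval 32.4 to 168; 7 and 445 reads). *shhb* showed the same order at a lower level, with 0 reads in double-positive cells, 0.0911 RPKM in *fli1a*:EGFP cells and 0.593 RPKM in *sox10*:DsRed cells positive for that reporter alone. Against the 3-read limit of the double-positive library, *shhb* was at least 20.1-fold lower than in *sox10*:DsRed single-positive cells. That library also had the highest summed markers of the midline, ear, epithelium, and neurons and glia among the 13. Its summed RPKM was 12.2 for 7 markers of endoderm, notochord and floor plate, of which 2 were at 0 and the notochord gene *ta* (Brachyury) alone gave 9.66, against 0.663 in wild-type double-positive cells. It was 247 for 5 ear markers, 188 for 5 epithelial markers and 93.2 for 6 markers of neurons and glia, while double-positive cells had 7.17, 23.3 and 4.86. The part of these tissues in the *shha* signal was not tested. The other ligand genes, with 4 entries for *ihha*, *ihhb* and *dhh*, all fell short of the minimum mean.

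**Figure D1:**
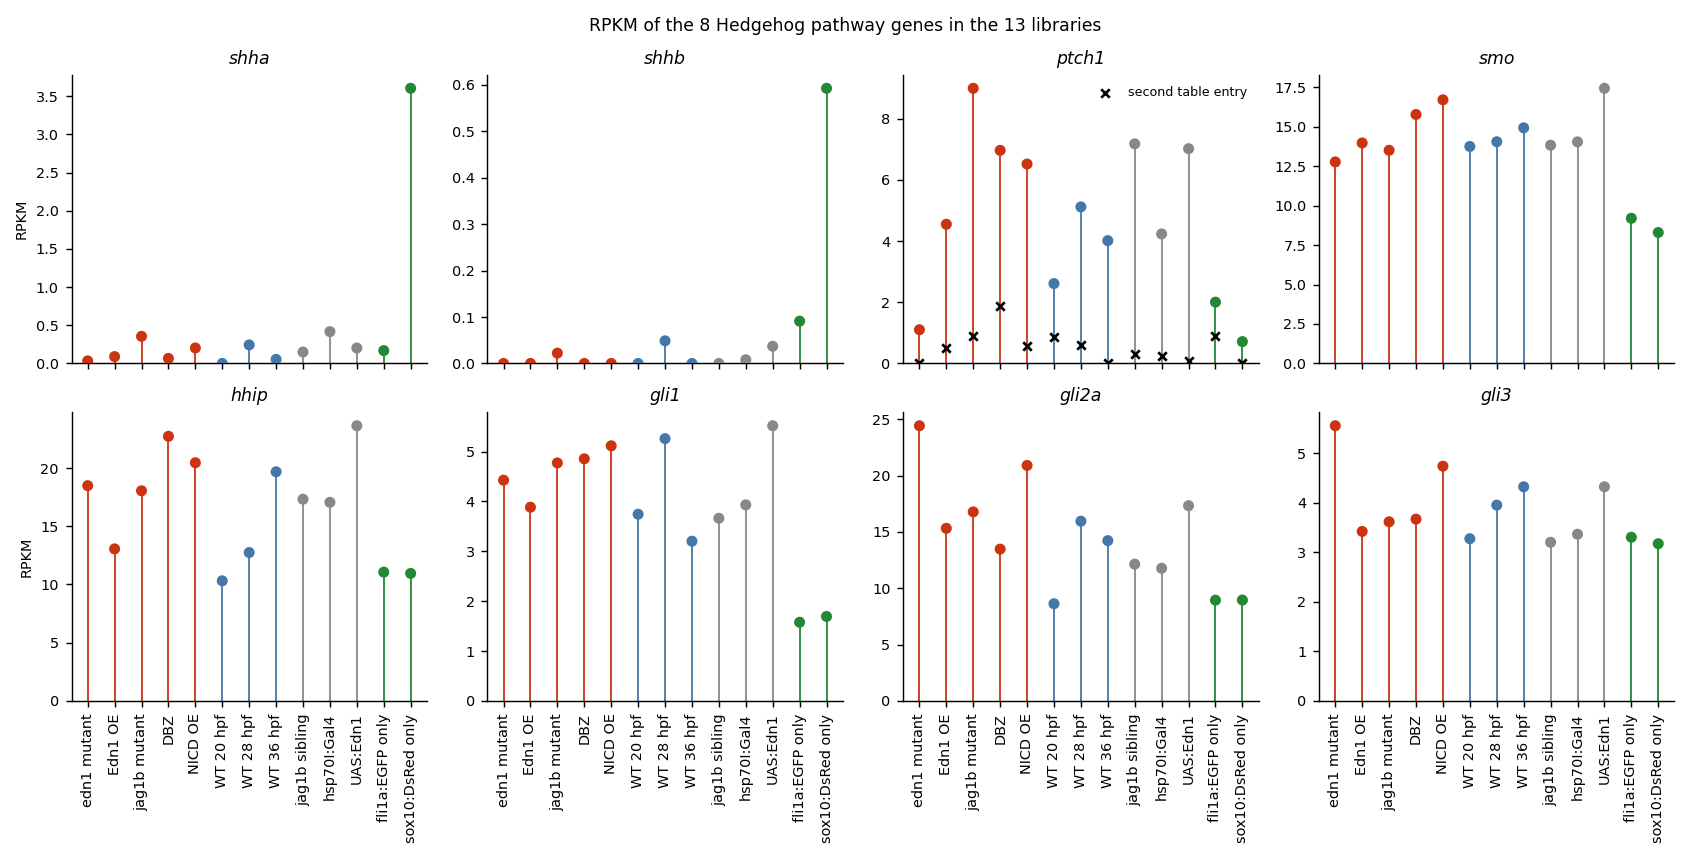
RPKM (vertical axis, linear, separate scale per gene) of the 8 genes in each of the 13 libraries, with perturbed double-positive libraries in red, wild-type stages in blue, other controls in grey and single-positive populations in green; crosses mark the second entry named *ptch1*. *shha* and *shhb* are high only in *sox10*:DsRed single-positive cells, *ptch1* is at 1.10 RPKM in *edn1* mutants against 4.01 to 7.18 RPKM in the 4 controls, and *gli2a* reaches 24.4 RPKM in *edn1* mutants.

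The receiving side of the pathway was present in every library. In the 11 double-positive libraries *gli2a*, a Gli factor that can act as an activator, ranged from 8.63 to 24.4 RPKM with a median of 15.3, and *hhip* from 10.3 to 23.6 with a median of 18.0. *smo*, the membrane protein through which Hedgehog ligands signal, varied least of the 6, from 12.8 to 17.4 RPKM, a 1.37-fold span. *gli1* ranged from 3.20 to 5.52 RPKM and *gli3*, known in other vertebrates chiefly as a repressor, from 3.20 to 5.55 RPKM. *ptch1* varied most of the 6 counted entries, from 1.10 to 8.99 RPKM, an 8.16-fold span, against 1.79-fold among the 4 controls. RPKM values are scaled to transcript length, so these levels are set beside each other, as a rough guide only. The *ptch1* level is that of its first entry alone. By median, *hhip*, *gli2a* and *smo* lay close together and their ranges overlapped, while *ptch1* overlapped *gli1* and *gli3*.

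The 2 entries named *ptch1* (ENSDARG00000016404 and ENSDARG00000095859) did not come out as whole reads, so how reads were divided between them is not known. The second was low and irregular, with 0.00231 RPKM in *edn1* mutants, 1.87 with DBZ and 0.0197 to 0.319 in the 4 controls. *ptch1* below means the first entry, and the sum of both is given where it changes a call.

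Between 28 and 20 hpf, *ptch1*, *gli2a* and many other pathway genes were higher at the later stage. At 28 hpf against 20 hpf, *ptch1* was 1.96-fold higher, with 5.12 against 2.61 RPKM, and *gli2a* was 1.85-fold higher, with 16.0 against 8.63 RPKM (interval 1.76 to 1.94). These were 2 of the 6 counted entries, beside 20.5% of all genes called higher, and they were also the 2 of 6 called in either direction, beside 31.5%. *gli1* was at 5.26 against 3.74 RPKM, a ratio of 1.41. Of the 28 counted entries of the pathway list (other ligands, ligand release, co-receptors, transducers, cilium and crest genes known to need Hedgehog signaling), 16 were called higher and 0 lower, and their median log2 fold was 0.66, against 0.10 over all counted genes. The shares of all genes are the 20.5% higher and 31.5% in either direction given above. By role, 3 of 4 genes of ligand release, 3 of 4 co-receptors, 1 of 5 transducers and 2 of 6 cilium genes were called higher. The crest genes known to need Hedgehog signaling gave 7 of 9, with a median log2 fold of 1.87, against 0.15 for the cilium genes. The last group of the list also holds *osr2*, *ccnd1* and *mycn*, of which *ccnd1* and *mycn* are general proliferation genes. *boc*, a Hedgehog co-receptor, was 2.29-fold higher and *cdon*, its relative, 1.77-fold. Of the forkhead genes that need Hedgehog signaling in crest, *foxf1* was at 15.9 against 4.35 RPKM, *foxf2a* at 13.3 against 0.264 and *foxl1* at 3.72 against 0.149.

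At 36 hpf against 28 hpf, 1 of 6 entries was called higher and 1 lower, counts near the shares of all genes. The paper states that embryos for the 36 hpf sorts were kept in a cooler incubator to slow their development. Stage and rearing temperature therefore cannot be told apart where 36 hpf is compared with the earlier stages. *hhip* was 1.54-fold higher, with 19.7 against 12.7 RPKM (interval 1.48 to 1.62), and *gli1* was 1.64-fold lower, with 3.20 against 5.26 RPKM (interval 1.53 to 1.77). Each was 1 of 6 entries in its direction, beside 15.1% of genes called higher and 24.6% called lower. *ptch1* was at 4.01 against 5.12 RPKM and *gli2a* at 14.2 against 16.0 RPKM. The wild-type 36 hpf library had the lowest *gli1* of the 4 controls, and the other 3 were at 3.66 to 5.52 RPKM, the highest of which exceeded the 28 hpf value. On the pathway list 9 entries were called higher and 3 lower. *foxf2a* at 35.5 against 13.3 RPKM and *foxl1* at 14.9 against 3.72 RPKM were among the 9, and *scube2*, a secreted factor that releases ligand, *gli2b*, a paralog of *gli2a*, and *mycn*, a proliferation gene, were the 3.

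Over the whole interval, 36 hpf against 20 hpf, *hhip* was 1.91-fold higher, *gli2a* 1.65-fold and *ptch1* 1.54-fold, which is 3 of 6 beside 24.3% of genes, and 0 were lower beside 24.5%. With both *ptch1* entries summed, the *ptch1* ratio was 1.16 and the call was lost. On the pathway list 14 were called higher and 1, *mycn*, lower. Over the same stages, the arch NCC markers themselves summed to 331, 743 and 692 RPKM at 20, 28 and 36 hpf. Macrophage and neutrophil markers summed to 278, 181 and 5.21 RPKM, and muscle markers to 5.29, 18.5 and 396 RPKM. The part of the make-up of the sorted cells in the stage differences was not tested.

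Compared with the single-positive populations, double-positive cells had more of each counted member. *ptch1* was at 4.01 RPKM in double-positive cells, 2.004 in *fli1a*:EGFP cells and 0.715 in *sox10*:DsRed cells positive for that reporter alone, making it 2.003-fold and 5.62-fold higher in double-positive cells. *gli1* was at 3.20 RPKM, against 1.58 and 1.69, *hhip* at 19.7 against 11.1 and 10.95, *smo* at 14.9 against 9.20 and 8.30, and *gli2a* at 14.2 against 8.94 and 8.95. *gli3*, at 4.32 against 3.30 and 3.17 RPKM, was higher too but short of the call. Called higher were 5 of 6 entries over *fli1a*:EGFP single-positive cells, beside 17.8% of all genes, 5 of 6 over *sox10*:DsRed single-positive cells, beside 22.9%, and 5 of 6 over both, beside 9.00%. None was called lower, beside 11.8%, 16.4% and 6.89% of all genes in the same order.

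The median log2 fold of the 6 entries was 0.76 over *fli1a*:EGFP and 0.85 over *sox10*:DsRed single-positive cells, against 0.22 and 0.15 over all counted genes. Rescaling by the median ratio left 3 of the 6 called over *fli1a*:EGFP single-positive cells, and left 8.14% of all genes called higher and 16.1% lower there, against 17.8% and 11.8% as deposited. Over *sox10*:DsRed single-positive cells it left 4 of the 6, beside 17.5% of all genes, with *gli2a* short of the call at 1.44-fold. Thus 3 of the 6 (*ptch1*, *gli1* and *hhip*) were then called over both, a count for which the rescaled share of all genes was not computed. Summing the *ptch1* entries put that gene at 1.40-fold over *fli1a*:EGFP single-positive cells, below the call. Of the pathway list, 14 of 28 were called higher over *fli1a*:EGFP and 22 of 28 over *sox10*:DsRed single-positive cells, with 0 lower in either. All 9 entries of the group of crest genes known to need Hedgehog signaling, *ccnd1* and *mycn* included, were among the 22. *foxf1* was at 15.4 against 0.440 RPKM. *gli2b* was at 5.29 RPKM in double-positive cells, against 2.26 in *fli1a*:EGFP cells and 0.810 in *sox10*:DsRed cells positive for that reporter alone.

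Among the perturbed embryos, *edn1* mutants stood out by their low *ptch1*. *edn1* encodes Endothelin 1, the signal that specifies the ventral arches. *ptch1* was at 1.10 RPKM in *edn1* mutants, against 4.01 in wild types, 7.18 in *jag1b*+/+ siblings, 4.23 in *hsp70I*:Gal4 and 7.02 in *UAS*:Edn1 embryos. The mutant library was below every control and below every other double-positive library, and it was 3.64-fold lower than its wild-type control.

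*gli1* and *hhip*, also known as targets, did not share this size of difference. *gli1* was at 4.43 RPKM in *edn1* mutants, against 3.20 in wild types, and lay within the control range of 3.20 to 5.52. *hhip* was at 18.5 RPKM, against 19.7 in wild types, and within the control range of 17.1 to 23.6, though after rescaling it lay below it, at 15.2 against 16.9 to 21.6. Within the mutant library the ratio of *ptch1* to *gli1* was 0.249, against 1.08 to 1.96 in the 4 controls. Such ratios do not depend on how a library is scaled. For *ptch1* the fold was lower still against the *jag1b*+/+ sibling library, a ratio of 0.154, and after rescaling, a ratio of 0.230, against 0.275 as deposited.

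The Gli genes *gli2a* and *gli3* lay above the control range in *edn1* mutants, as did 43.5% of all genes (28.5% after rescaling). Their position is a description and nothing particular to the members. *gli2a* was at 24.4 RPKM, against 14.2 in wild types, 12.1 in siblings, 11.8 in *hsp70I*:Gal4 and 17.3 in *UAS*:Edn1 embryos, and was 1.72-fold higher than in wild types (interval 1.65 to 1.79). *gli3* was at 5.55 RPKM, against 3.20 to 4.32 in the controls. Both lay above all 4 controls, also after rescaling, whereas *gli2b* at 5.76 RPKM lay within the control range of 5.29 to 10.96 (below it after rescaling), and the ratio of *gli2b* to *gli2a* was 0.236, against 0.372 to 0.673. *smo* was at 12.8 RPKM, against 13.8 to 17.4.

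In all, 1 of 6 entries was called higher in *edn1* mutants (beside 24.6% of all genes) and 1 of 6 lower (beside 11.3%), and 2 lay above and 2 below the control range (beside 43.5% and 19.5%). The mutant library as a whole was shifted upward, with a median log2 fold of 0.22 over all counted genes and 0.14 over the 6 entries. After rescaling by the median ratio, 12.1% of genes were called higher and 18.6% lower, *gli2a* was at 1.44-fold, short of the call, *ptch1* kept its call, and 2 entries lay above and 3 below the control range, beside 28.5% and 31.7% of all genes. The mutant library was also the shallowest, at 0.687 of the wild-type depth. Summed endothelial markers were 15.5 RPKM in *edn1* mutants, against 5.27 to 7.56 in the 4 controls, and muscle markers 92.4 RPKM, against 7.35 to 396. Their part in these values was not tested.

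**Figure D2:**
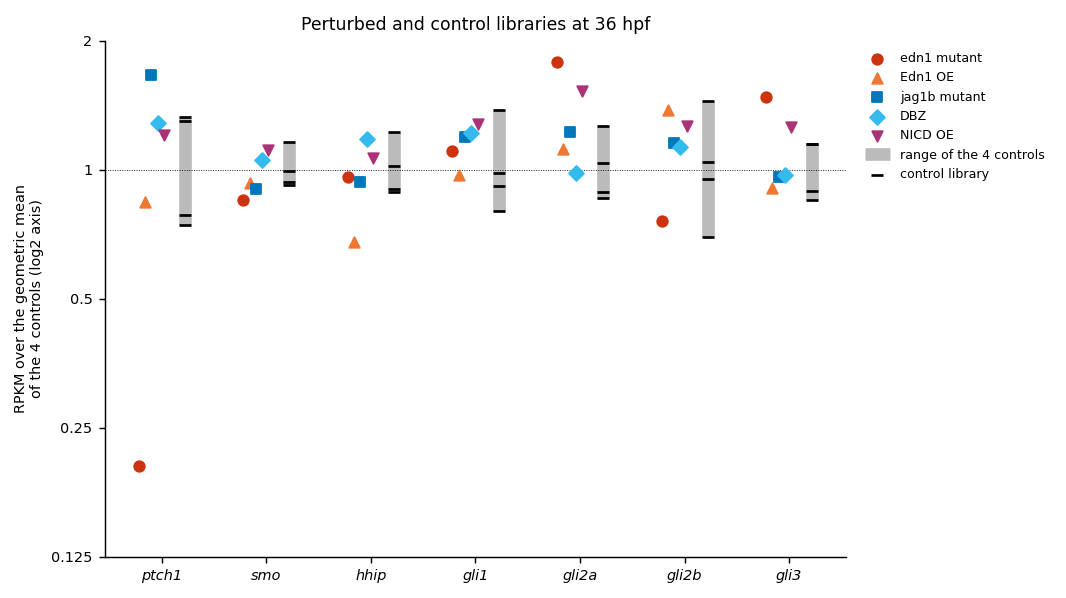
RPKM of 7 pathway genes in the 5 perturbed libraries (coloured symbols) and the 4 control libraries at 36 hpf (black dashes, grey bar from the lowest to the highest), each divided by the geometric mean of the 4 controls, on a log2 axis. *ptch1* of *edn1* mutants lies far below its bar, at 1.10 RPKM, and *gli2a* and *gli3* of *edn1* mutants lie above theirs.

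On the pathway list, 9 of 28 entries were called higher and 3 lower in *edn1* mutants, and 15 lay above and 4 below the control range (11 and 6 after rescaling, which returned *cdon*, *boc*, *gas1a* and *spop* to the range and put *gpr161* and *gli2b* below it). The 4 below were *scube2*, *foxd1*, *ccnd1* and *mycn*. *foxd1*, a crest forkhead gene, was at 17.1 RPKM in *edn1* mutants, against 24.2 to 32.6 in the controls, *ccnd1*, a cyclin gene, at 36.5 against 43.8 to 50.6, and *mycn* at 17.9 against 27.4 to 124. *scube2*, at 5.23 against 5.26 to 8.47 RPKM, was barely below. Over all counted genes, 24.6% were called higher and 11.3% lower, and 43.5% lay above and 19.5% below the range (28.5% and 31.7% after rescaling), so the counts of the list are a description and nothing particular to it. *scube3*, a relative of *scube2*, and *gpr161*, a ciliary inhibitor of the pathway, were called 1.55-fold and 1.70-fold lower than in wild types but lay inside the control range.

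The 15 above included 5 other crest forkhead genes. *foxf1* was at 34.3 RPKM in *edn1* mutants, against 12.4 to 19.7 in the controls, *foxf2a* at 62.2 against 15.5 to 42.1, *foxl1* at 25.4 against 5.19 to 14.9, *foxf2b* at 11.4 against 3.52 to 7.44 and *foxd2* at 62.6 against 23.0 to 49.4. The forkhead genes of the list therefore lay on opposite sides of the controls, with *foxd1* below and the others above, and rescaling kept each on its side. The co-receptors *boc* (72.5 against 44.4 to 58.1), *cdon* (57.2 against 41.5 to 49.0) and *gas1a* (29.0 against 20.3 to 24.2) and *disp1*, which exports ligand (2.90 against 1.06 to 1.79), were also above. So were the transducers *sufu*, *kif7*, *stk36* and *spop* and the cilium genes *arl13b* and *kif3a*, of which *kif3a* was at 14.1 RPKM against 5.88 to 8.68. Of the 9 calls higher than wild types, 4 (*kif7*, *arl13b*, *kif3a*, *foxf1*) held after rescaling.

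**Figure D3:**
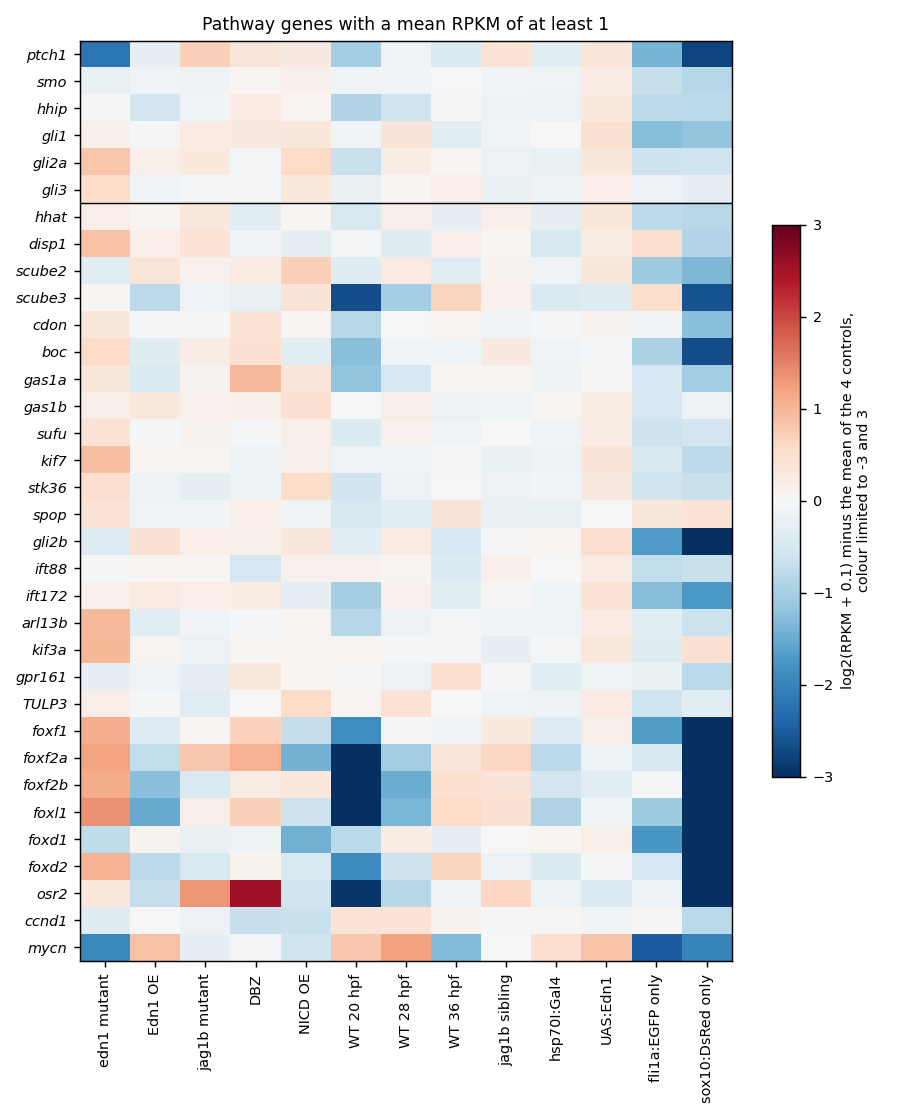
Difference of log2(RPKM + 0.1) from the mean of the 4 controls at 36 hpf (colour, limited to -3 and 3) for the 6 counted members (above the line) and the 28 counted entries of the pathway list (below it) in the 13 libraries. In the *edn1* mutant column *ptch1* is blue while *gli2a*, *gli3* and most forkhead genes are red, and the *sox10*:DsRed single-positive column is blue for nearly all genes.

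With Edn1 overexpression, the calls of members depended on the control library. No member was called in either direction against *hsp70I*:Gal4 controls, beside 5.09% of genes higher and 8.59% lower. Against *UAS*:Edn1 controls, 2 of 6 were called lower (*ptch1* at 0.648 and *hhip* at 0.552), beside 6.74% of genes. None was called higher there, beside 3.50%. *ptch1* was at 4.55 RPKM with Edn1 overexpression, against 4.23 in *hsp70I*:Gal4 and 7.02 in *UAS*:Edn1 embryos, a pair of controls that themselves differed 1.66-fold. *hhip* was at 13.1 RPKM, below all 4 controls, which ran from 17.1 to 23.6 (21.8% of genes lay below the range and 7.97% above). *gli2a* was at 15.3 RPKM and *gli3* at 3.42, both within the range. *foxl1* was called 1.53-fold lower and *foxf2b* 1.65-fold lower, *disp1* 1.67-fold higher, and 3 and 9 of the 28 entries lay above and below the control range.

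Perturbations of Notch signaling, which patterns the dorsal arches, gave smaller differences for *ptch1* than those of *edn1* mutants. DBZ, counted among them, blocks γ-secretase, and the paper states that inhibitors of this kind act on other pathways too. In *jag1b* mutants, which lack a Notch ligand, *ptch1* was at 8.99 RPKM, against 7.18 in siblings, a ratio of 1.25. This was above all 4 controls, and no member was called (beside 2.37% of genes higher and 4.14% lower). One member lay above the control range (*ptch1*) and 1 barely below (*smo*, at 13.5 against 13.8 to 17.4 RPKM), beside 7.31% and 27.0% of genes. Against siblings *smo* had a ratio of 0.977 (interval 0.935 to 1.02), within counting error. After rescaling, 3 members lay above the range and 0 below, beside 18.7% and 13.7% of genes. On the pathway list, *osr2*, a skeletal patterning gene, was called 1.63-fold higher and *foxf2b* 1.80-fold lower.

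With DBZ, *ptch1* was at 6.97 RPKM, against 4.01 in wild types, 1.74-fold higher, and *gli1* at 4.86 against 3.20, 1.52-fold higher (interval 1.41 to 1.63). That is 2 of 6, beside 14.2% of genes, with 0 lower, beside 15.7%. Neither left the control range, and 0 of 6 entries did, beside 17.3% of genes above and 25.7% below. Against the sibling library *ptch1* had a ratio of 0.970. With both *ptch1* entries summed, the gene was at 8.84 RPKM with DBZ, against 4.03 in wild types (2.19-fold) and 7.50 in siblings, the highest control, and so lay above all 4 controls. The *jag1b*+/+ sibling library itself was 1.79-fold above the wild-type library for *ptch1*, the 1 of 6 entries called higher between these 2 unperturbed libraries, beside 13.2% of genes, with 0 lower, beside 17.4%. On the pathway list *osr2* was at 32.9 RPKM with DBZ, against 5.30 in wild types and 4.20 to 8.61 over the 4 controls, and was also the highest of the perturbed libraries. *gas1a*, *gli2b*, *foxf1*, *foxf2a* and *mycn* were called higher as well. *scube3* (1.62 against 3.12 RPKM) and *ccnd1* (28.9 against 50.6 RPKM) were called lower. These were 6 and 2 of 28 entries, beside the 14.2% and 15.7% of all genes given above. *gas1a*, at 44.8 RPKM, lay above the control range of 20.3 to 24.2. *gli2b*, at 8.57 RPKM against 5.29 to 10.96, and *scube3*, against 1.39 to 3.12, lay within their control ranges. Of the 28 entries, 7 lay above and 3 below the control range, beside the 17.3% and 25.7% of all genes given above. Muscle markers were 254 RPKM, against 396 in wild types. Whether these wild types received the solvent of DBZ is not stated in the sources used here.

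With NICD, *gli2a* was at 20.9 RPKM, against 11.8 in *hsp70I*:Gal4 embryos, 1.77-fold higher (interval 1.71 to 1.85), and *ptch1* at 6.52 against 4.23, 1.54-fold higher. These were 2 of 6, beside 16.6% of genes, and 0 were lower, beside 7.72%. *gli2a* and *gli3*, the second at 4.74 RPKM against 3.20 to 4.32, lay above all 4 controls (2 of 6, beside 28.4% of genes) and none below (beside 14.9%). Against the *UAS*:Edn1 library neither call held, with ratios of 0.928 for *ptch1* and 1.21 for *gli2a*. Between the heat-shocked controls, *UAS*:Edn1 over *hsp70I*:Gal4, *ptch1* was the 1 of 6 entries called higher, beside 8.67% of genes, and 0 were lower, beside 7.86%. On the pathway list, *scube2*, *scube3*, *stk36*, *TULP3* and *foxf2b* were called higher, as *ptch1* was, and *foxf2a*, *foxd1*, *ccnd1* and *mycn* lower. Against *UAS*:Edn1 embryos, *scube2* (11.1 against 8.47 RPKM) and *stk36* (1.68 against 1.37 RPKM) fell short of the call. *scube3* (2.53 against 1.46 RPKM) kept it. Arch NCC markers summed to 454 RPKM with NICD, against 707 in *hsp70I*:Gal4 embryos, and ear markers to 32.5 against 14.4. Their part in these values was not tested.

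**Figure D4:**
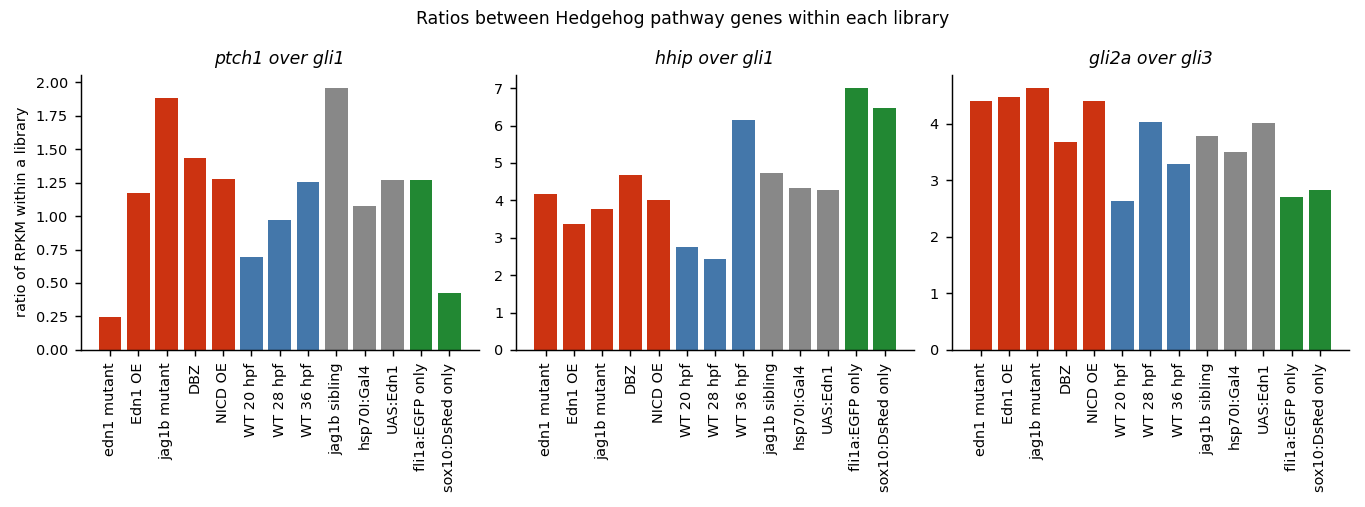
Ratios of RPKM between pathway genes within each library (vertical axis, linear, starting at 0), with perturbed libraries in red, wild-type stages in blue, other controls in grey and single-positive populations in green. The ratio of *ptch1* to *gli1* is 0.249 in *edn1* mutants, below every other library, while the ratio of *gli2a* to *gli3* stays between 2.64 and 4.64.

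Across the 11 double-positive libraries, the genes most like *ptch1* by Pearson's r of log2(RPKM + 0.1) were *pkd2* (a calcium channel subunit of the cilium, r = 0.91), *sh3rf1*, *bmpr1bb* (a BMP receptor), *MEX3A* and *ctbp2a* (a transcriptional corepressor). Of 11689 genes, *gli1* ranked 1995 with r = 0.31, *hhip* 1936 with r = 0.33, *gli2a* 5394 with r = -0.13 and *gli3* 8310 with r = -0.44. Nearer to *ptch1* were *gli2b*, at rank 533 with r = 0.65, and *smo*, at rank 961 with r = 0.53. For *gli1* the nearest genes were *IFT122* (a ciliary transport gene, r = 0.95), *six3a*, *dvl2*, *depdc5* and *adnp2a*, while *ptch1* ranked 2818. In between, *gli2b* ranked 161 (r = 0.68), *gli2a* 728 (r = 0.53), *smo* 1286 (r = 0.45), *gli3* 2254 (r = 0.36) and *hhip* 2584 (r = 0.33). *six3a* stood at only 0.0420 to 0.462 RPKM in these 11 libraries. It passed the minimum mean only through the single-positive libraries, so its rank rests on values near the floor. Without the *edn1* mutant library, a setting chosen after seeing the data, *gli1* had r = 0.58 with *ptch1*, *hhip* r = 0.68, *gli2a* r = 0.66 and *gli3* r = 0.24, so the negative values of *gli2a* and *gli3* rested on that library. The nearest genes rested on it too, as *pkd2* then had r = 0.73 and rank 396, *sh3rf1* rank 219, *bmpr1bb* rank 361, *MEX3A* rank 523 and *ctbp2a* rank 29. The points differ in depth and stage, and these values are descriptions with no test.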

How the data were processed

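RNA of FACS-sorted cell populations from 13 conditions was measured, with 1 library per condition. The authors mapped the paired-end reads to GRCz10 using TopHat 2, assigned them to Ensembl 80 genes in Partek by its E/M method, and deposited RPKM values. Sequencing used 2 instrument types, and the instrument of each library is not given in the sources used here. Every value column was mapped to a library by the code in the sample description, and the libraries were named by their titles.

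Fold changes are ratios of RPKM with no pseudocount and no further scaling. Entries were counted from a mean of 1 RPKM over the libraries and called at 1.5-fold. The steps between RPKM values gave relative depths and, within 0.06 of a read, whole reads, which succeeded for 7 of the 8 members and failed for *ptch1*. Limits at 0 stand for 3 reads. The scripts were tested on simulated data. PCR reads are not independent molecules, so the intervals cover counting error of reads only and can be too narrow for molecules.

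The members and lists were chosen with earlier results of these data known. All members are named. Other pathway genes were counted by role and named where they were called in the direction of *ptch1* or lay outside the control range in *edn1* mutants, and for *ptch1* and *gli1* the 5 genes of highest correlation. *foxf1*, *foxf2a*, *foxl1* and *osr2* in other comparisons, and the lower calls under DBZ, NICD and overexpression, were named after their values were seen. Of 35 pathway genes looked up, 33 were found (not *evc* and *evc2*), in 34 entries, and 1 further gene is not reported here. Macrophage, muscle, endothelial, ear, epithelial, midline and neural markers were summed, and the 6 neural markers reached 4.86 to 16.2 RPKM in the double-positive libraries.

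Alternatives were adding 0.1 RPKM before each ratio, median-ratio rescaling of the libraries over 7897 genes, no filter on low values, a mean RPKM of at least 3 and the other control library. The reference table at hand is of another genome build, so no coordinates are given. Double-negative cells were not analysed here. Calculations used Python 3.11.15, numpy 2.4.6, pandas 2.3.3, scipy 1.17.1 and matplotlib 3.10.9.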

Additional observations from a re-analysis of the deposited data

How the results depend on the processing

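The lower *ptch1* of *edn1* mutants kept its direction and its call under each alternative run for it (ratios 0.154 to 0.292). A pseudocount of 0.1 moved no count of members. A mean RPKM of at least 3 could move none, because all 6 counted entries already passed it. No filter on low values adds *shha*, *shhb* and the second *ptch1* entry, which are low and have some ratios over 0 reads. Percentages in brackets below are shares of all genes under the same setting. Of 9 entries, those called higher were 4 for 28 over 20 hpf (25.4%) and 4 for 36 over 20 hpf (27.5%). They were 3 for NICD (21.7%), 3 for DBZ (20.0%), 3 for *jag1b* mutants (14.0%) and 3 for sibling over wild type (20.0%). With overexpressed Edn1 it was 1 (12.9%), and for *UAS*:Edn1 over *hsp70I*:Gal4 2 (15.1%). Members called lower were then 4 for 36 over 28 hpf (29.96%) and 1 for 36 over 20 hpf (28.96%). Over *fli1a*:EGFP single-positive cells 3 were called lower (25.4%), and over *sox10*:DsRed single-positive cells 2 (29.1%). In *edn1* mutants 3 were called lower (23.95%), and with Edn1 overexpression 2 (22.6%). With NICD 2 were called lower (20.6%), and for *UAS*:Edn1 over *hsp70I*:Gal4 2 (22.6%). After rescaling, 3 of 6 were called higher over *fli1a*:EGFP (8.14%) and 4 over *sox10*:DsRed single-positive cells (17.5%). In *edn1* mutants 0 were called higher (12.1%), and with NICD 1 was (13.5%). Above the control range lay 1 with Edn1 overexpression (16.9%), 3 in *jag1b* mutants (18.7%) and 2 with DBZ (23.5%). Below it lay 3 in *edn1* mutants (31.7%) and 0 in *jag1b* mutants (13.7%).

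Against the other control library, 2 of 6 members were called higher in *edn1* mutants, beside 35.1% of all genes (*gli3* joined, at 1.73). In *jag1b* mutants 1 was called higher, beside 12.8% (*ptch1*, at 2.24), with DBZ 0, beside 12.2%, and with NICD 0, beside 15.0%. With Edn1 overexpression 2 were called lower, beside 6.74% (*ptch1* at 0.648 and *hhip* at 0.552). Directions turned against the other control for *ptch1* with DBZ (0.970) and NICD (0.928), *mycn* with DBZ (0.972) and *disp1* with Edn1 overexpression (0.988). Among the other pathway genes, 14 calls were lost against the other control library and 14 were gained. With controls of the same heat treatment only, chosen after seeing the data, 3 lay below the range with Edn1 overexpression, beside 44.3% of all genes. Above it lay 3 in *edn1* mutants, beside 54.9%, 3 in *jag1b* mutants, beside 22.3%, and 3 with DBZ, beside 31.0%. The cause of these moves was not tested. No paired analysis was possible because each condition had 1 library. No difference of *shha* was detectable at this depth in *edn1* mutants (ratio 0.624, interval 0.104 to 2.73; 3 and 7 reads) or with DBZ (1.23, 0.409 to 3.898; 9 and 7 reads).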
